A study of Ovis aries with 2 samples.

Results

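PIWIL1, TDRD5, HSPA2 and TEX101 are 4 genes known from meiotic germ cells, and they were followed from spermatogonia to elongating spermatids in single cells of sheep testis. They were chosen by gene symbol and are 4 of the 27054 genes in the files, which list them as ENSOARG00000016263, ENSOARG00000017299, ENSOARG00000001015 and ENSOARG00000008553. Each symbol matched 1 identifier, and all 4 genes were detected, with 2368 UMIs of PIWIL1, 941 of TDRD5, 2584 of HSPA2 and 1385 of TEX101 over both libraries. A UMI (unique molecular identifier) marks a single captured RNA molecule, so reads copied from it count once. The study holds 1 droplet library of sheep testis labelled ZEA0.75 and 1 labelled as control, both at an age of 8 months. The unit of 0.75 is not given in the labels. ZEA is the usual abbreviation of zearalenone, an oestrogenic toxin of Fusarium moulds, though the labels do not spell it out. Breed, route of exposure and number of animals are not given, and the design text describes a study of damage by ZEA to the testis.

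In a pachytene spermatocyte the paired chromosomes recombine along the synaptonemal complex, and the cell makes a large class of short RNAs, the pachytene piRNAs. PIWIL1 (MIWI in the mouse) is the Argonaute-like protein that carries these piRNAs, and TDRD5 is a Tudor-domain protein of the germ granules, which male mice need for piRNA production and transposon silencing. HSPA2 is the testis-enriched member of the HSP70 chaperones, found on the synaptonemal complex and required by male mice to complete meiosis. TEX101 is a germ cell glycoprotein anchored in the membrane, which mouse sperm need for the maturation of ADAM3 and passage into the oviduct.

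The ZEA library kept 8804 cells with a median of 1405.5 UMIs, against 6811 control cells with a median of 4121. Its deposited total was 22148456 UMIs, against 53044981 in the control library. Cells were grouped into 24 clusters without the 4 genes or their pathway lists among the clustering genes, and 17 clusters were named from marker genes. The remaining 7 held 33.0% of ZEA and 35.2% of control cells. Spermatocyte-like cells numbered 6 in the ZEA library and 1126 in the control library, so every level in spermatocytes comes from the control library alone. Summed markers of early spermatocytes had 582 CPM over the ZEA library and 1506 over the control library (CPM, the usual scaling of summed UMIs to a common total), and all 12 of their genes in the files were detected in both. Endothelial markers had 792 and 3.59 CPM. Only 15 barcodes occurred among the kept cells of both libraries. Each group is 1 library, so no test between groups was possible. All intervals are exact 95% intervals for counting error only, not for differences between animals or between cells.

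All 4 genes had their highest control level in the early spermatocyte-like cluster of 148 cells. This cluster was named from 7 of its markers, among them SYCP2, HORMAD1, STAG3 and SMC1B, which encode parts of the meiotic chromosome axis. The markers were scored as 1 list of early spermatocytes, which does not separate pachytene from earlier prophase. The cells are therefore called by their marker class. PIWIL1 had 437 CPM there (411 to 464, 1057 UMIs), and 129 of 148 cells held at least 1 of its UMIs. TDRD5 had 217 CPM (199 to 236, 525 UMIs) in 118 cells. HSPA2 had 440 CPM (414 to 467, 1064 UMIs) in 132 cells. TEX101 had 413 CPM (388 to 440, 1000 UMIs), but in 70 cells only. The 4 genes were among the 10 genes that led this cluster over the others by fold. None of them had served to form it, but they were chosen with earlier results of these data known. Their place there, and the counts of the 4 genes beside all genes below, are therefore descriptions and no independent support. Another of the 10 leading genes was H1-6, the testis-specific linker histone of spermatocytes.

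In the late spermatocyte-like cluster of 978 control cells, led by the division kinase AURKA, all 4 genes were lower than in the early one. PIWIL1 had 72.5 CPM there, or 16.6% of its own early level. TDRD5 had 27.1 CPM, 12.5% of its early level, and HSPA2 had 85.7 CPM, 19.5% of its early level. TEX101 had 6.08 CPM, only 1.47% of its early level. As log2 ratios of late to early, PIWIL1 stood at -2.59 (-2.72 to -2.46), TDRD5 at -3.00 (-3.21 to -2.79) and HSPA2 at -2.36 (-2.49 to -2.23). TEX101 stood at -6.09 (-6.46 to -5.73), an interval that does not meet those of the other 3 genes. These intervals treat UMIs as independent, while 28 of the 148 early cells held 86.3% of the TEX101 UMIs. The TEX101 interval thus leaves out a wide spread between cells. All 4 were thus at least 2-fold lower, where 12.1% of the 7855 genes with at least 50 UMIs in the 2 sums were, and the median over those genes was -0.02. This step was added after the clusters had been seen.

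The next step, from late spermatocyte-like to round spermatid-like cells (1136 control cells), was again a large drop for 3 of the 4 genes. PIWIL1 had 9.22 CPM in the round cells, TDRD5 1.99 and HSPA2 5.73, or 2.11%, 0.919% and 1.30% of their early spermatocyte levels. Their log2 ratios of round to late cells were -2.97 (-3.24 to -2.72) for PIWIL1, -3.77 (-4.34 to -3.24) for TDRD5 and -3.90 (-4.23 to -3.59) for HSPA2. TEX101, already low, had 3.86 CPM in the round cells and a ratio of -0.65 (-1.17 to -0.14). The count was 3 of 4 genes at least 2-fold lower, beside 35.6% of 9416 genes, whose median was -0.43. With the unnamed clusters assigned to their best class, the TEX101 ratio of this step turned to 0.13. The unnamed control cluster 0, whose best list was that of round spermatids, had 29.2 CPM of TEX101 (22.2 to 37.7, 58 UMIs). Its 1544 cells, at a median of 1019 UMIs, also had 30.7 CPM of PIWIL1, 6.04 of TDRD5 and 15.6 of HSPA2. TEX101 was thus not low in all control germ cells outside the early cluster, and the stage of these shallow cells was not tested.

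From round to elongating spermatid-like cells (2045 control cells) PIWIL1 was lower again, at 4.60 CPM and a log2 ratio of -1.01 (-1.42 to -0.60). The other 3 genes showed no difference beyond counting error. TDRD5 had 2.21 CPM with a ratio of 0.15 (-0.57 to 0.87), HSPA2 had 6.11 CPM with 0.09 (-0.33 to 0.51), and TEX101 had 3.02 CPM with -0.35 (-0.91 to 0.20). PIWIL1 alone was at least 2-fold lower, beside 30% of 9295 genes with a median of -0.47, and under 7 of the alternative settings it was less than 2-fold lower.

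**Figure D1:**
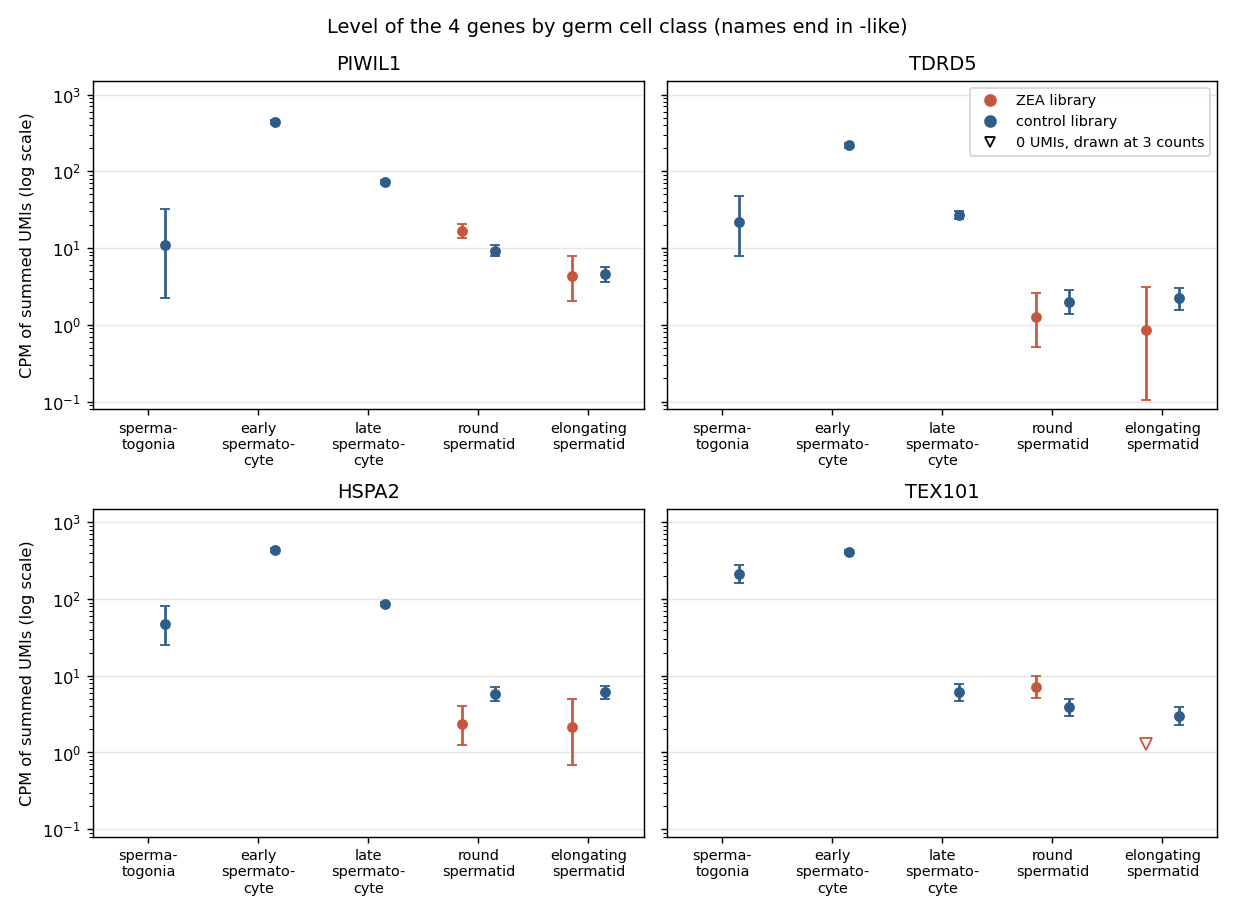
Level of each gene (CPM of summed UMIs, log axis) in the germ cell classes of the ZEA library, to the left, and the control library, to the right. Points are class sums, bars are exact 95% Poisson intervals, and classes with under 30 cells are not drawn, so ZEA has no spermatogonia or spermatocytes. All 4 genes peak in control early spermatocyte-like cells at 217 to 440 CPM, and TEX101 is already at 6.08 CPM in late spermatocyte-like cells.

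The low spermatid values were set beside control cells that should lack the genes, which are few. Per 100 cells, the control round cells held 13.0 UMIs of PIWIL1, 2.82 of TDRD5, 8.10 of HSPA2 and 5.46 of TEX101, at a median depth of 13142.5 UMIs. The 45 control macrophage-like cells, at a median of 1158 UMIs, held 6.67, 0, 2.22 and 2.22, that is 3, 0, 1 and 1 UMIs. Thinned to 500 UMIs per cell, 0.264% of control round cells had a PIWIL1 UMI (0.0545% to 0.77%), and over the 4 genes the shares of round and elongating cells were 0.176% to 0.44%. In macrophage-like cells and in cluster 14, an unnamed control cluster of 112 cells led by the Sertoli list, they were 0% to 2.22%. With 45 and 112 cells the intervals of these sets are wide, reaching 7.87% for a count of 0 in the macrophage-like cells, so they do not place the spermatid shares at or above background. The part of RNA free in the suspension in the spermatid levels was not tested. In late spermatocyte-like cells the thinned shares were 3.27% for PIWIL1, 1.23% for TDRD5 and 4.40% for HSPA2, against 0.409% for TEX101 (0.112% to 1.04%). TEX101 itself had 0.352% in round (0.096% to 0.899%) and 0.391% in elongating cells (0.169% to 0.769%), intervals that overlap that of its late share.

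The order of the drops within meiosis was followed in single control cells by the share of late markers among their early and late spermatocyte marker UMIs, a measure added after the clusters had been seen. It ranges over the 2 spermatocyte-like clusters, and 78 cells with under 20 marker UMIs were left out. The 4 ranges held 34, 74, 6 and 0 early and 0, 18, 682 and 234 late spermatocyte-like cells. The step from the second to the third range thus largely repeats the contrast of the 2 clusters. In the 34 cells with a late share below 20%, TEX101 had 751 CPM (684 to 822), and in the next range, 20% to 40% with 92 cells, it had 251 (228 to 275). It then had 6.75 CPM in the 688 cells of 40% to 60% and 5.83 in the 234 cells above that. PIWIL1 had 570, 373, 77.2 and 52.4 CPM over the same 4 ranges. TDRD5 had 285, 180, 30.7 and 15.8 CPM, and HSPA2 had 615, 348, 92.7 and 63.3. In the second range TEX101 was thus at 33.4% of its first level, while PIWIL1 was at 65.5%, TDRD5 at 63.1% and HSPA2 at 56.5%. The share of cells with a TEX101 UMI was 88.2%, 33.7%, 7.41% and 5.56% over the ranges, whose median depths were 17968, 20474.5, 10520.5 and 9911 UMIs. The shallower late ranges lower such shares, but the second range was deeper than the first.

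**Figure D2:**
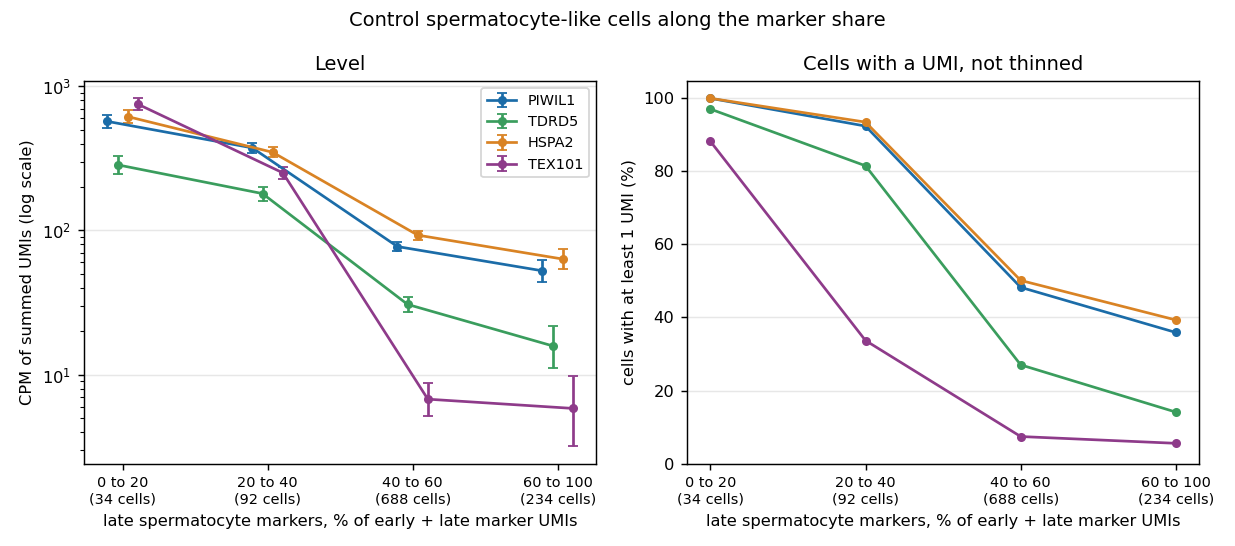
Left, CPM of summed UMIs (log axis) of each gene in control spermatocyte-like cells, split by the share of late markers among their spermatocyte marker UMIs, with exact 95% Poisson intervals. Right, the percent of those cells with at least 1 UMI, not thinned; the TEX101 share is 33.7% in the second range, where the other 3 genes are at 81.5% or more.

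Within the early spermatocyte-like cluster, TEX101 was spread over cells unlike the other genes. PIWIL1 had a median of 6 UMIs per cell (0 to 22), HSPA2 a median of 6 (0 to 29) and TDRD5 a median of 3 (0 to 18). TEX101 had a median of 0 and a highest value of 55, and 28 cells with at least 10 UMIs held 86.3% of its UMIs. Those 28 cells were shallower than the others, with a median of 10023.5 UMIs, against 19081 in the 42 cells with 1 to 9 TEX101 UMIs and 21409.5 in the 78 cells with none. The late share of their spermatocyte markers was 19.6%, against 22.9% and 30.7%. HSPA2 had 903 CPM (800 to 1015) in the cells rich in TEX101, 516 (466 to 571) in the middle group and 294 (266 to 324) in the cells without. PIWIL1 had 666, 485 and 359 CPM over the same groups. TDRD5 had 269 and 281 CPM in the first 2 groups, whose intervals overlap, and 171 in the third. This split was made after the spread had been seen, and uses TEX101 itself, so only the other 3 genes are compared. The level of TEX101 in the cluster hung on the weight given to these shallow cells: it was 826 CPM with every cell weighted equally and 368 CPM from cells with at least 5000 UMIs, against 413 in the summed counts.

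**Figure D3:**
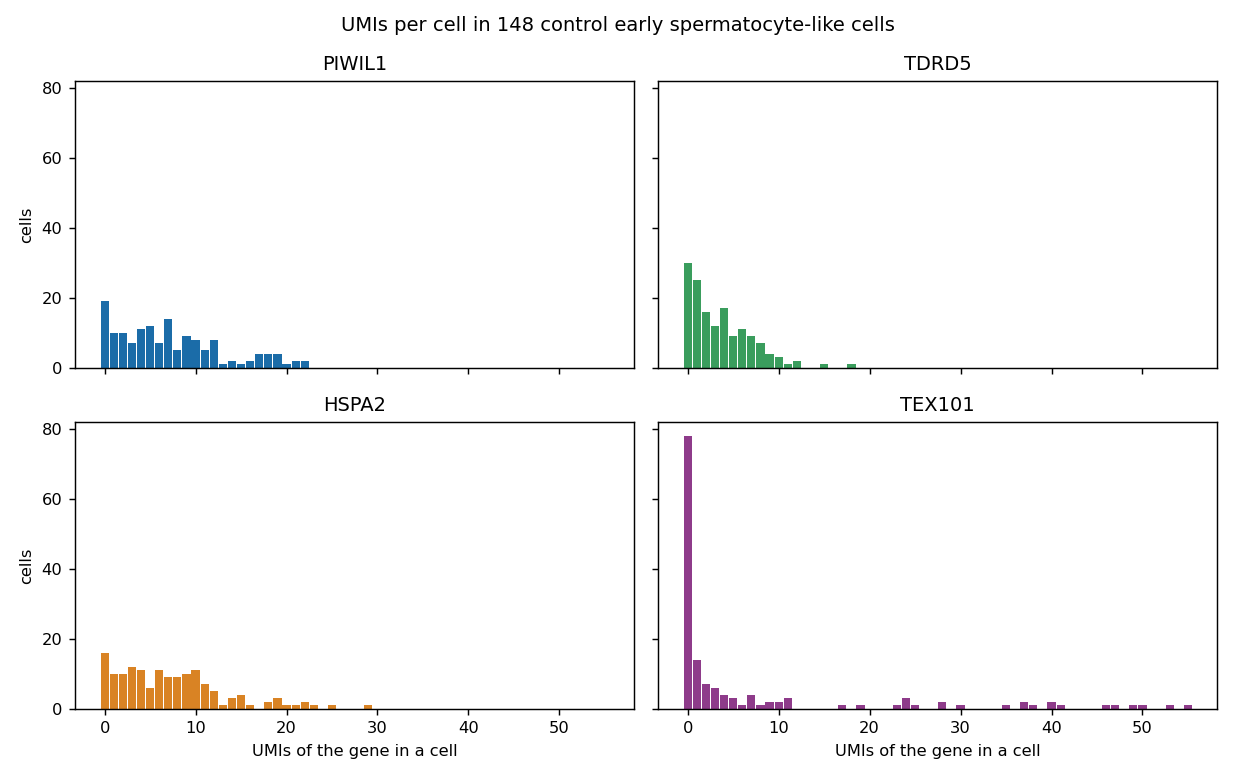
Number of control early spermatocyte-like cells (148 in all) at each UMI count of each gene. PIWIL1, TDRD5 and HSPA2 have medians of 6, 3 and 6 UMIs, while 78 cells have no TEX101 UMI and single cells reach 55.

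For the earliest named germ cells the data are thin. The 36 control spermatogonia-like cells, named from UCHL1, TKTL1, STRA8 and KIT, held 3 UMIs of PIWIL1, 6 of TDRD5, 13 of HSPA2 and 59 of TEX101. Markers of early spermatocytes summed to 1814 CPM in these cells and markers of spermatogonia to 1734. Their markers thus do not place the class as a whole before meiosis. TEX101 had 214 CPM there (163 to 276), but 36 of its UMIs came from 2 cells. Of the 59 UMIs, 55 lay in the 16 cells that also had a UMI of SYCP3, DMC1 or HORMAD1, genes of early meiotic prophase, and 4 lay in the other 20. The 17 ZEA spermatogonia-like cells held 1 UMI each of TDRD5 and TEX101 and none of PIWIL1 or HSPA2.

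Pairs of the genes met in early spermatocyte-like cells near or above the product of their single shares. With 127 of these control cells thinned to 2000 UMIs, PIWIL1 and TDRD5 were both present in 26.0%, against a product of the single shares of 26.4%. HSPA2 and TEX101 were both present in 26.0%, against 20.1%, and TDRD5 and HSPA2 in 31.5%, against 26.4%. In the 958 late spermatocyte-like cells deep enough for this, PIWIL1 and HSPA2 met in 1.25% of cells, against 1.44%, PIWIL1 and TDRD5 in 0.731%, against 0.594%, and TDRD5 and HSPA2 in 0.835%, against 0.584%. The cells share depth and stage, and these shares are descriptions.

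Over the 11 control clusters of at least 50 cells, the gene most like PIWIL1 among 6330 genes was ATF7IP2, with a Pearson correlation of log2(CPM + 1) of 0.98. After it came DR1, SMC4, a condensin subunit, TPR, a nuclear pore protein, and CUL2, a cullin of ubiquitin ligases. The nearest to HSPA2 were OTUD3 (0.96), FKBP6, an immunophilin needed for piRNA production in the mouse, PIWIL1 itself, MLH3, which acts at crossovers, and ATF7IP2. TEX101 was nearest to H1-6 (0.91), KNL1, a kinetochore scaffold, MOV10L1, the helicase that starts piRNA processing in the mouse, PCDHB6 and ATF7IP2. TDRD5 stood nearest to FBN2 (0.97), CASC3, DGKE, TBL1XR1 and C11orf16. PIWIL1 and HSPA2 correlated at 0.96, PIWIL1 and TDRD5 at 0.85, and HSPA2 and TEX101 at 0.80. The clusters share 1 library and differ in depth, and a single cluster holds the peak of all 4 genes.

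The early and sharp peak was not shared by the whole piRNA pathway, of which 30 of 35 listed genes are in the files. Of 25 with at least 50 UMIs, 7 were at least 2-fold lower in late than in early spermatocyte-like cells and 1 was higher, with a median of -0.44, beside 12.1% of all genes lower and 9.84% higher. Nearest to the drop of the 4 genes was ASZ1, a germ granule protein of the mitochondrial surface, at 24.4 CPM in late and 136 CPM in early cells (log2 ratio -2.48, -2.71 to -2.24). HENMT1, which methylates piRNA ends, stood at -2.42 (-2.96 to -1.88), EXD1 at -2.24 (-2.61 to -1.87) and MOV10L1 at -1.95 (-2.15 to -1.76). MYBL1, the transcription factor of pachytene piRNA genes in the mouse, had 128 CPM in late and 159 CPM in early cells. From late to round cells 16 of 25 were at least 2-fold lower and 3 higher, with a median of -1.65, beside 35.6% of all genes lower and 30.9% higher. FKBP6 had a ratio of -4.37 (-4.65 to -4.10), TDRD15 of -3.92 (-4.35 to -3.52), MYBL1 of -3.82 (-4.08 to -3.58) and PLD6 of -3.67 (-5.04 to -2.54). GTSF1 and its paralog GTSF1L went the other way, with 4594 and 569 CPM in round cells and 1356 and 58.7 CPM in late ones.

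Of the wider pachytene list 16 of 18 genes are in the files. Of these, 14 had enough UMIs, but CCNA1, NEK2, CDC25C, SLC26A8 and TBPL1 also served to name the late spermatocyte-like cluster, which favours their higher level there, and SPATA16 is a round spermatid marker. Of the 8 genes that were no markers, 1 was at least 2-fold lower in late than in early spermatocyte-like cells, TEX30 at -2.76 (-2.90 to -2.61), and none was higher, beside 12.1% and 9.84% of all genes. From late to round cells 3 of the 8 were at least 2-fold lower and none higher, beside 35.6% and 30.9% of all genes, among them LDHC, the germ cell lactate dehydrogenase, at -3.24 (-3.30 to -3.18).

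Of 16 listed genes that work with HSPA2 or on the same processes, 11 are in the files. Of these 11, 3 were at least 2-fold lower in late than in early cells and none higher, with a median of -0.43. Among all genes 12.1% were lower and 9.84% higher. HSF5, a germ cell heat shock factor, stood at -1.54 (-1.80 to -1.29) and SYCP1, which joins the chromosome axes, at -1.20 (-1.37 to -1.02). HSPH1 had 14.7 CPM in late and 41.3 CPM in early cells, and HSF2 had 33.1 and 56.2 CPM. SHCBP1L, which binds HSPA2 in the mouse, had 2402 CPM in late and 2452 CPM in early cells. CDK1, whose activity HSPA2 enables in mouse spermatocytes, had 24.8 CPM in late and 24.4 CPM in early cells, and -5.83 (-7.16 to -4.77) from late to round cells. Among 12 genes of the TEX101 and ADAM3 list with enough UMIs, 1 was lower, 1 higher and the median was -0.02, that of all genes. ADAM3 itself and LY6K, a partner of TEX101 in the mouse, matched no symbol and were not analysed here. From late to round cells 6 of 13 in that list were at least 2-fold lower and 5 higher, beside 35.6% and 30.9% of all genes. The highest ratios were those of the serine protease gene PRSS55 (4.13, 3.95 to 4.31) and PDILT, a chaperone of ADAM3 in the mouse (3.58, 3.46 to 3.71).

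HSPA2 shares much of its coding sequence with other HSP70 genes, and no source used here says how reads matching several of them were counted. Of that family HSPA1L, HSPA6 and HSPA8 have symbols in the files. HSPA1L, a spermatid gene, had its highest control level in elongating spermatid-like cells, at 142 CPM, and 10.3 CPM in early spermatocyte-like cells. HSPA6 had 0 UMIs in each control class of at least 50 cells, and HSPA8 had 7.02 CPM (17 UMIs) in early spermatocyte-like, 2.03 in late spermatocyte-like, 1.62 in round and 1.57 in elongating cells. HSPA8 thus also had its highest of these 4 levels in the early cells, from far fewer UMIs than the 1064 of HSPA2, and HSPA1L and HSPA6 did not.

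In the ZEA library most HSPA2 UMIs came from cells that are not germ cells. There 245 of 289 HSPA2 UMIs (84.8%) lay in named somatic classes and in cluster 23, against 5 of 2295 (0.218%) in the control library. Cluster 23, of 168 ZEA cells and no control cell, was led by PLTP, MME, SFRP2, BEX5, TST and INSL3 among genes with symbols. INSL3 is a Leydig cell hormone gene and a listed marker, but only 3 of the 6 Leydig markers in the files were detected there. The cluster stayed unnamed because no marker met all the criteria for enrichment, and no cell type is given to it here. It had 111 CPM of HSPA2 (88.8 to 136), with a UMI in 38.1% of its cells. Stromal fibroblast-like cells had 101 CPM (76.6 to 131), perivascular-like cells 45.6 (30.6 to 65.6) and peritubular myoid-like cells 34.6 (24.3 to 47.6). Endothelial-like cells, which were deeper (median 2532.5 UMIs, against 1270 in fibroblast-like cells), had 4.30 CPM (2.96 to 6.03), an interval well below those 4. The order of the fibroblast-like and cluster 23 levels cannot be told, and perivascular-like and peritubular myoid-like intervals overlap too. Thinned to 500 UMIs, 5.69% of fibroblast-like cells had an HSPA2 UMI (3.56% to 8.57%), against 0.313% of endothelial-like cells (0.126% to 0.643%). HSPA8 did not follow this order, with 534 CPM in fibroblast-like and 1763 CPM in endothelial-like cells. The control library had 11 fibroblast-like, 4 perivascular-like and 3 peritubular myoid-like cells, too few for a comparison.

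**Figure D4:**
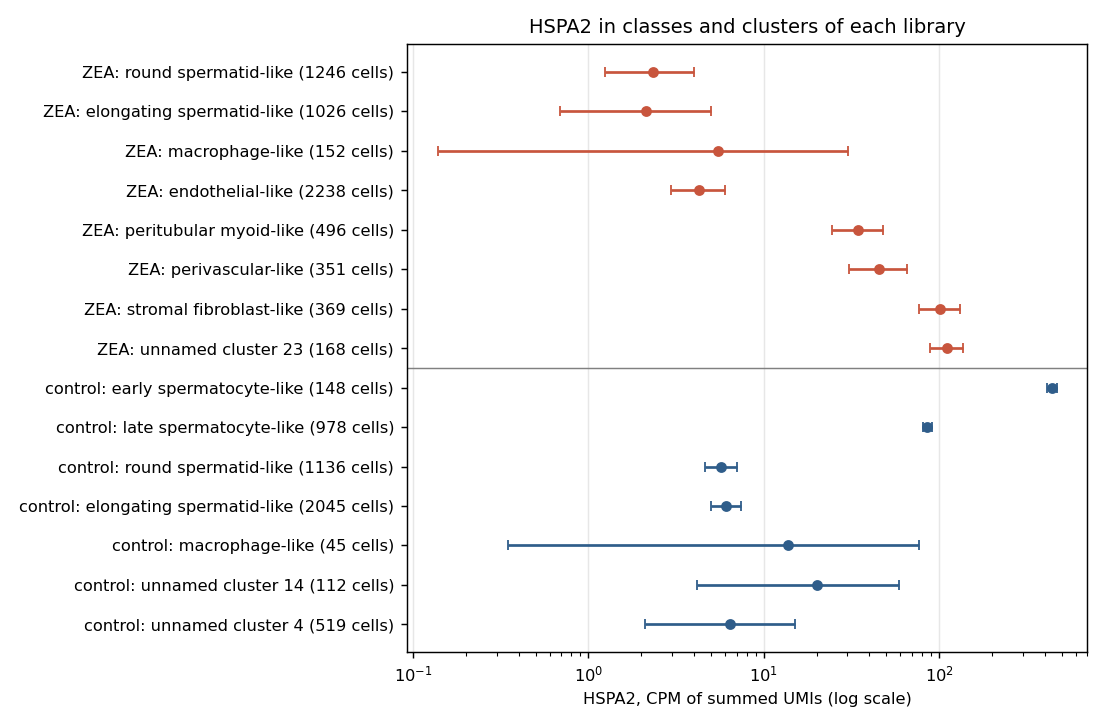
HSPA2 level (CPM of summed UMIs, log axis) in classes and clusters of the ZEA library, above, and the control library, below, with exact 95% Poisson intervals. In the ZEA library stromal fibroblast-like cells and cluster 23 reach 101 and 111 CPM and endothelial-like cells 4.30, while the control peak is 440 CPM in early spermatocyte-like cells.

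PIWIL1, TDRD5 and TEX101 showed no such somatic level. In ZEA endothelial-like cells PIWIL1 had 2.47 CPM, TDRD5 0.26 and TEX101 1.04, and in stromal fibroblast-like cells 1, 0 and 0 UMIs. Among named ZEA somatic classes PIWIL1 was highest in peritubular myoid-like cells, at 4.67 CPM (1.52 to 10.9, 5 UMIs). That is near its 4.26 CPM in ZEA elongating spermatid-like cells. Of the 178 PIWIL1 UMIs of the ZEA library 57.9% lay in spermatid-like cells, and of its 78 TEX101 UMIs 51.3%. In the control library 85.8% of PIWIL1, 90.0% of TDRD5, 88.8% of HSPA2 and 81.8% of TEX101 UMIs came from the spermatocyte-like cells.

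Over the whole libraries all 4 genes were lower in ZEA. PIWIL1 had 8.04 CPM (178 UMIs) in the ZEA library, against 43.4 CPM (2190 UMIs) in the control library, a log2 ratio of -2.43 (-2.66 to -2.21). TDRD5 had 0.677 CPM (15 UMIs) in the ZEA library and 18.3 CPM (926 UMIs) in the control library, a ratio of -4.76 (-5.60 to -4.03). HSPA2 had 13.1 CPM (289 UMIs) in the ZEA library and 45.5 CPM (2295 UMIs) in the control library, a ratio of -1.80 (-1.98 to -1.62). TEX101 had 3.52 CPM (78 UMIs) in the ZEA library and 25.9 CPM (1307 UMIs) in the control library, a ratio of -2.88 (-3.23 to -2.55). The median over 13346 genes was 0.20, and 16.1% of them were at least 2-fold lower. With 6 spermatocyte-like cells in the ZEA library, fewer cells of this stage and less RNA per cell cannot be told apart in these totals. The same holds for the exposure, the animal, the tissue piece and the preparation, which differ together between the libraries. The piRNA pathway was also low over the library, with 17 of 27 genes at least 2-fold lower, 1 higher and a median of -1.40, beside 34.1% of all genes higher. Of the pachytene list 10 of 14 were lower and none higher (median -1.17).

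The few ZEA spermatocyte-like cells also held UMIs of the genes. The 2 early spermatocyte-like ZEA cells held 9 UMIs of PIWIL1, 3 of TDRD5, 4 of HSPA2 and 14 of TEX101, all of the TEX101 UMIs in 1 cell. The 4 late spermatocyte-like ZEA cells held 2, 0, 1 and 0 UMIs. No level or ratio was formed from so few cells.

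Round and elongating spermatid-like cells are the germ cells present in number in both libraries. Different clusters hold them: ZEA round cells lay in clusters 1 (821 cells) and 20 (421 cells) and control ones in clusters 6 (489) and 7 (615), while elongating cells lay in cluster 13 in ZEA (955) and clusters 3 (973) and 9 (839) in control. In round cells PIWIL1 had 16.7 CPM (93 UMIs) in ZEA and 9.22 CPM (148 UMIs) in control, a log2 ratio of 0.86 (0.47 to 1.24). TEX101 was likewise higher in ZEA, with 7.19 CPM (40 UMIs) in ZEA and 3.86 CPM (62 UMIs) in control, a ratio of 0.90 (0.29 to 1.49). HSPA2 was lower, with 2.34 CPM (13 UMIs) in ZEA and 5.73 CPM (92 UMIs) in control, a ratio of -1.29 (-2.26 to -0.45). TDRD5 had 7 UMIs in ZEA and 32 in control, too few to enter, and a ratio of -0.66 (-2.09 to 0.54). The count was 1 gene at least 2-fold lower, beside 7.45% of 8820 genes, with a median over all genes of 0.28. Per 100 cells, ZEA round cells (median 1605.5 UMIs) held 7.46 UMIs of PIWIL1 and 3.21 of TEX101. ZEA endothelial-like cells (median 2532.5) held 0.849 and 0.357. Such counts are not scaled for depth, and the round cells mix depths. Cluster 20 (median 9621) held 17.1 and 5.23, and cluster 1 (median 1055) held 2.56 and 2.07. In CPM the endothelial-like cells had 2.47 of PIWIL1 and 1.04 of TEX101. For HSPA2 the round cells held 1.04 per 100 cells, below the 1.47 of the endothelial-like cells. Thinned to 500 UMIs per cell, the HSPA2 ratio of ZEA to control turned to 0.45 (-1.63 to 2.72), from few UMIs.

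Between the deeper clusters, ZEA cluster 20 (median 9621 UMIs) had 16.9 CPM of PIWIL1 (13.3 to 21.3), against 11.0 (8.89 to 13.5) in control cluster 7 (median 12779) and 6.89 (5.15 to 9.04) in control cluster 6 (median 14049). TEX101 had 5.18 CPM in cluster 20, against 5.21 in cluster 7 and 1.99 in cluster 6. In the shallower ZEA cluster 1 (median 1055 UMIs) TEX101 had 13.3 CPM (7.72 to 21.2, 17 UMIs) and PIWIL1 16.4 CPM. The part of depth and of the mix of clusters in the TEX101 ratio was not tested. HSPA2 had 1.88 CPM in cluster 20, against 5.45 in cluster 7 and 5.83 in cluster 6. The round classes also differed in stage markers, whose part in these ratios was not tested. Elongating spermatid markers summed to 7389 CPM in ZEA and 12363 CPM in control round cells, and early spermatocyte markers to 1332 CPM in ZEA and 1082 CPM in control. Of the pachytene list 4 of 14 genes were at least 2-fold higher in ZEA round cells and none lower, with a median of 0.55, beside 19.2% of all genes higher and their median of 0.28. Examples are ADAM2, with 301 CPM in ZEA and 98.0 CPM in control, and LDHC, with 418 CPM in ZEA and 157 CPM in control. Of the piRNA pathway 7 of 23 were higher, led by TDRD15 (2.16, 1.65 to 2.67), beside the same 19.2%, and 1 lower, GTSF1L (-1.57, -1.67 to -1.48).

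In elongating cells PIWIL1 had 4.26 CPM (10 UMIs) in ZEA and 4.60 CPM (79 UMIs) in control, which differ by less than counting error (-0.11, -1.23 to 0.84). HSPA2 had 2.13 CPM (5 UMIs) in ZEA and 6.11 CPM (105 UMIs) in control, a ratio of -1.52 (-3.17 to -0.25). TEX101 had 0 UMIs in the 1026 ZEA cells (0 to 1.57 CPM) and 3.02 CPM (52 UMIs, 2.26 to 3.97) in control. With 3 counts set in ZEA it was 2.37-fold lower, and the upper limit of 1.57 CPM leaves a smaller difference possible. TDRD5 had 2 UMIs in ZEA and 38 in control (-1.38, -4.47 to 0.58). Together 3 genes stood at least 2-fold lower, beside 6.45% of 7865 genes with a median of 0.11. Of these 3, TEX101 counted by the 3 counts set, and TDRD5 was below the 50 UMIs asked of other genes. The count was 1 with at least 5000 UMIs per cell, with equal weights per cell and with thinning. On the control side these are the low levels for which no background could be set. On the ZEA side PIWIL1 had 2.47 CPM (1.49 to 3.86) in endothelial-like and 4.67 (1.52 to 10.9) in peritubular myoid-like cells. Both intervals overlap that of the elongating cells (2.04 to 7.83). HSPA2 had 4.30 CPM in ZEA endothelial-like cells, above its elongating level. The ZEA elongating levels of PIWIL1 and HSPA2 thus do not stand above those of these somatic classes. Of the piRNA pathway, 3 of 21 genes were at least 2-fold higher in ZEA, a share near the 11.3% of all genes, and 1 was lower, FKBP6 at -2.79 (-5.85 to -0.90).

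**Figure D5:**
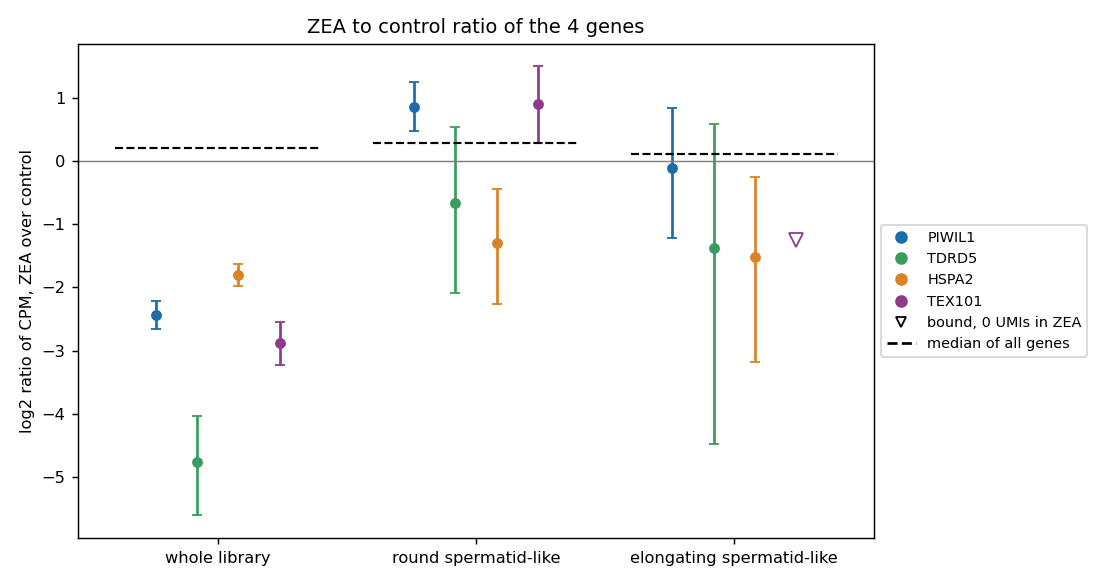
Log2 ratio of CPM, ZEA over control, of each gene over the whole library and in 2 spermatid-like classes. Bars are exact 95% conditional binomial intervals, the open triangle is a bound from 0 UMIs and dashed lines are medians over all genes. All 4 genes lie between -4.76 and -1.80 over the library, while PIWIL1 and TEX101 are at 0.86 and 0.90 in round cells.

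Within the ZEA library the step from round to elongating cells was again a drop for PIWIL1. Its log2 ratio was -1.97 (-3.08 to -1.03), and the interval of its elongating level overlaps those of ZEA endothelial-like and peritubular myoid-like cells. TEX101, with 0 UMIs in elongating and 40 in round cells, was 5.63-fold lower with 3 counts set in elongating cells. TDRD5 (2 and 7 UMIs) and HSPA2 (5 and 13 UMIs) were too rare for a direction. Only PIWIL1 had the 50 UMIs asked of other genes, and 2 of the 4 genes, PIWIL1 and TEX101, were at least 2-fold lower, beside 43.7% of 7173 genes with a median of -0.74. In the same step 12 of 19 piRNA pathway genes were at least 2-fold lower.

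Spermatids were also ordered by the share of their UMIs from 9 late spermatid genes such as TNP1, using cells with at least 2000 UMIs and the quartiles of the control cells as limits (1.16%, 1.74% and 2.34%). PIWIL1 had 17.1, 5.97, 1.36 and 2.70 CPM over the 4 ranges in ZEA, from 508, 196, 179 and 87 cells with 77, 5, 1 and 1 UMIs. In control it had 10.4, 6.52, 4.26 and 4.49 CPM. The log2 ratio of the highest to the lowest range was -2.66 (-7.98 to -0.14) in ZEA and -1.22 (-1.93 to -0.56) in control, intervals that overlap. The ranges were not alike: in the lowest, the median share was 0.563% in ZEA and 0.880% in control. Median depth over the ranges was 8738, 2926, 3115 and 3220 UMIs in ZEA and 12793.5, 14084, 12665 and 7206 in control. The part of depth and of the mix of clusters in these trends was not tested. TEX101 had 5.56 CPM in the lowest ZEA range, 2 UMIs in the second and 0 in the others, and in control 4.78, 2.51, 2.31 and 3.37 CPM. HSPA2 showed no trend in control, with 5.66, 5.31, 6.57 and 5.62 CPM, and neither did TDRD5, with 2.00, 2.11, 2.19 and 1.69 CPM.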

How the data were processed

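The values deposited by the authors are whole UMI counts of each gene in each barcode, with no normalization, from 10x Genomics 3' gel bead libraries per the labels. Cell Ranger 3.1.0 wrote the ZEA file and Cell Ranger 5.0.0 the control file, per the file headers, which makes the software version inseparable from the group. For both, Cell Ranger 3.1.0 and STAR stand in the submitters' processing notes. The genome build, annotation and barcode calling were not given in the sources used here.

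Cells were kept with at least 500 UMIs, 200 genes and at most 20% mitochondrial UMIs. Scrublet in scanpy 1.11.5 marked 1 ZEA barcode (0.0114%) and 198 control barcodes (2.82%), which were left out. With so few marked in the ZEA library the calls are taken as failed there, and doublets may remain among its cells. The 198 left-out control barcodes had 26.4 CPM of PIWIL1, 10.6 of TDRD5, 26.4 of HSPA2 and 6.69 of TEX101. The 2000 most variable genes, without the 4 genes and 4 described lists, gave 30 principal components and a graph of 15 neighbours, cut by the Leiden method (igraph 0.11.9, resolution 1). A cluster was named with a mean standardized marker level of at least 1, a lead of 0.2 and 3 enriched markers. It stayed unnamed where its depth or leading genes went against the name. Markers shared with a described list are left in the list's counts unless stated. These criteria were written after the clusters had been looked at.

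UMIs were summed per class as CPM. Levels have exact Poisson, ratios exact conditional binomial and shares exact (Clopper-Pearson) intervals, at 95% (scipy 1.17.1). A count of 0 was set to 3 counts over the class for a bound, which is under the upper limit of its exact interval. Genes entered a comparison with at least 50 UMIs over both sums. On simulated counts the ratio step was checked. No reads were available to tell independent molecules beyond the UMIs, and no p-value was computed. Named genes were the 4 genes, from each list the 4 with the largest absolute log2 ratio, and the 5 most correlated genes; other genes were named for context after their values had been seen. The genes and lists were chosen with earlier results of these data known. Sequences, coordinates and the promoter motif search are not used here.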

Additional observations from a re-analysis of the deposited data

How the results depend on the processing

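Filters on depth and mitochondrial share, doublets, cell weights, thinning, clustering and scaling were varied in 16 settings, giving 710 alternative values. Of these 578 stayed within counting error, 130 moved beyond it and 2 changed sign: the HSPA2 ratio of ZEA to control in round cells thinned to 500 UMIs (0.45), and the TEX101 ratio of round to late control cells with unnamed clusters in their best class (0.13), an alternative added after seeing the data. The cause was not tested. The counts of genes at least 2-fold lower over the library, from early to late and from late to round cells did not move. The ZEA to control count in round cells was 1, but 2 with at least 5000 UMIs per cell or at resolution 0.5, and 0 with equal weights or thinning. In elongating cells it was 3, but 1 with at least 5000 UMIs, equal weights or thinning. From round to elongating control cells it was 1, but 2 with unnamed clusters in their best class. It was 0 with doublets kept, equal weights, thinning, resolution 0.5, all genes eligible for clustering, median scaling, or without barcodes in both libraries. In ZEA it was 2, but 1 with at least 5000 UMIs or thinning. The TEX101 level in early spermatocyte-like cells was 986 CPM with thinning and 347 at a mitochondrial share of at most 5%. At resolution 0.5 no early spermatocyte-like cluster was named. No paired analysis was possible because each group has 1 library, so no replicate could be left out either. The promoter motif search was not run. Depth limits the spermatid values, which rest on 0 to 148 UMIs per gene and class.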
